A study of Mus musculus with 24 samples.

Results

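The genes described here carry fatty acids into the muscle cell and burn them in its mitochondria. There are 32 of them, of 53392 genes quantified, taken by gene symbol as a pathway list. The rule itself used no measured value, but the list was written with earlier results of these data known. The 32 genes fall into 9 roles, which are uptake and binding, activation to acyl-CoA, the carnitine shuttle, the acyl-CoA dehydrogenases, the later steps of the oxidation spiral, its auxiliary enzymes, electron transfer, regulators and mitochondrial uncoupling. Their polyA RNA was measured in mouse myogenic cells of dystrophin-deficient mdx mice (C57BL/10ScSn-Dmd mdx/J) and of wild-type (WT) mice (C57BL/10ScSnJ), in 4 states with 3 libraries per genotype and state, hence 8 groups and 24 libraries. Freshly isolated muscle stem cells (FiMuSCs) came from resting hindlimb muscle, and activated muscle stem cells (AMuSCs) from hindlimb muscle 3 days after intramuscular cardiotoxin, a snake venom toxin that destroys myofibres. Both were sorted by flow cytometry as GFP-positive, ITGA7-positive cells without CD31, CD45, SCA1 or CD11b. Myoblasts were isolated from hindlimb muscle with magnetic beads and grown in culture with serum and basic FGF, and myotubes were the same kind of culture after 2 days in horse serum. All mice carried the Pax7-nGFP reporter, which is driven by the stem cell gene Pax7 and served as the sorting gate, so that the sorted cells are those with an active Pax7 reporter. The age and sex of the animals of each library, and whether animals were pooled, were not given in the sources used here. The study describes the libraries as biological triplicates.

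A long-chain fatty acid enters the cell with the help of the scavenger receptor CD36, is held in solution by fatty acid binding proteins and is joined to coenzyme A by an acyl-CoA synthetase. The carnitine palmitoyltransferases CPT1 and CPT2 and the carrier SLC25A20 bring the acyl group across the mitochondrial membranes, and CPT1 is the regulated gate of the pathway, blocked by malonyl-CoA. Inside, each turn of beta-oxidation runs through dehydrogenation, hydration, another dehydrogenation and thiolysis, and the electrons of the first dehydrogenation reach the respiratory chain through the flavoprotein ETF. Differentiated muscle is one of the main sites of this pathway, and quiescent muscle stem cells are known to use fatty acids as a fuel.

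Library totals lay between 37280196 and 64429222 reads (median 47357464). Levels are given below as CPM, which are read counts scaled to a common library total with TMM factors over all 24 libraries, and genes are compared with each other only in TPM, which are scaled to transcript length as well. The stem cell gene Pax7 lay between 1398 and 1971 CPM in FiMuSCs, between 331 and 855 CPM in AMuSCs, between 141 and 236 CPM in myoblasts and between 19.7 and 34.9 CPM in myotubes. Dmd, the gene with the mdx mutation, lay between 38.1 and 47.1 CPM in mdx myotubes, against 205 to 230.1 CPM in WT myotubes, and between 139 and 149.5 CPM in mdx FiMuSCs, against 230.4 to 262 CPM in WT FiMuSCs. In AMuSCs and myoblasts Dmd was low in both genotypes and did not separate them.

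RNA of other cell types was unequal between libraries, and it bears on several members below. The 9 macrophage markers summed to 385, 654 and 1297 CPM in mdx FiMuSCs, against 81, 266 and 53.8 CPM in WT FiMuSCs. In AMuSCs they summed to 4198, 146 and 282 CPM in mdx cells, against 11.1, 10.1 and 28.9 CPM in WT cells, so that mdx AMuSC replicate 1 stood far above the rest. Among the cultures, mdx myoblast replicate 2 had 174 CPM of these markers, where the other 5 myoblast libraries had between 4.55 and 7.71 CPM. The 8 endothelial markers summed to 667, 251 and 249 CPM in mdx FiMuSCs, against 319.8, 276 and 326 CPM in WT FiMuSCs, with mdx FiMuSC replicate 1 highest, and to between 22.2 and 55 CPM in all AMuSC libraries. In FiMuSCs the genes of this sum did not run one way, since Cdh5, Cldn5 and Esam were higher in every mdx library than in every WT library (Cdh5 at 58.2 to 169 CPM in mdx, against 21.6 to 41.2 CPM in WT) and Tek was lower (52.4 to 94.1 CPM in mdx, against 124 to 155 CPM in WT). No marker of either list was at 0 reads throughout the mdx FiMuSCs or mdx AMuSCs. Of these lists, 8 of 9 macrophage markers and 1 of 8 endothelial markers were higher by the test in mdx than in WT FiMuSCs, and 4 of 9 and 2 of 7 tested in mdx than in WT AMuSCs. Beside these and the marker counts below, 5.82% of all genes tested were higher in mdx FiMuSCs and 14.8% in mdx AMuSCs. The 6 markers of fibro-adipogenic progenitors, the stromal cells of muscle, summed to between 431 and 475 CPM in mdx FiMuSCs, against 521 to 635 CPM in WT FiMuSCs, and to between 55.8 and 82.9 CPM in mdx AMuSCs, against 13.6 to 16.9 CPM in WT AMuSCs, where 4 of the 6 were higher by the test. Most of the FiMuSC sum was Dpt (352 to 392 CPM in mdx, against 475 to 611 CPM in WT), while Pdgfra, Ly6a, Dcn and Lum were higher in every mdx FiMuSC library than in every WT one, Pdgfra and Ly6a by the test. Leukocyte markers (4 of 6), erythroid markers (3 of 6) and those of pericytes and smooth muscle (2 of 5) were also higher by the test in mdx AMuSCs. In bulk RNA a smaller number of cells of a type cannot be told apart from less RNA per cell.

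**Figure D1:**
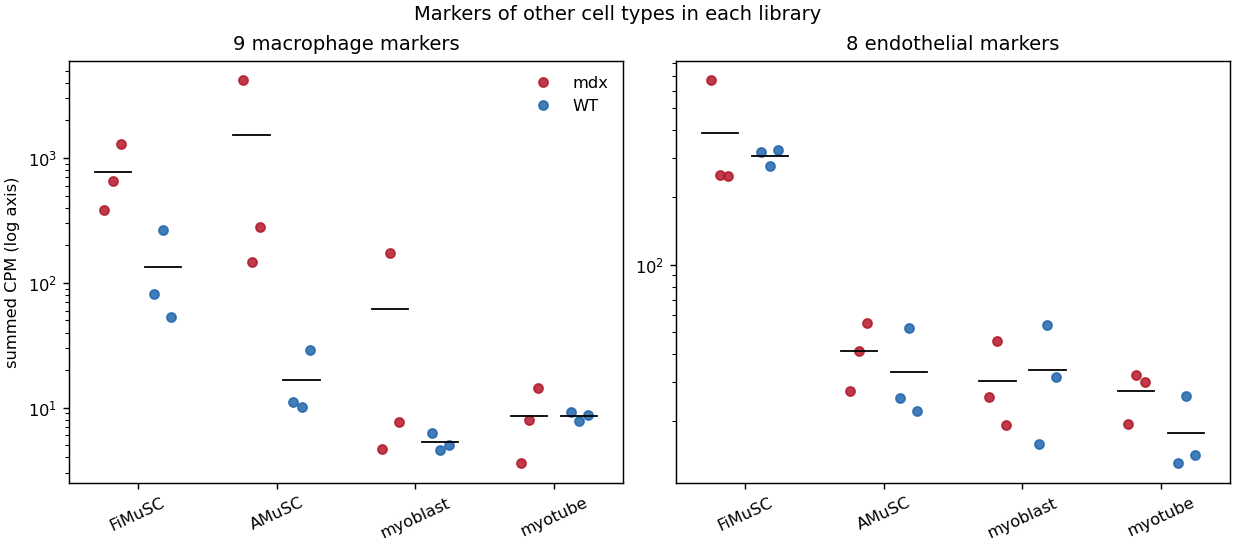
Summed CPM of 9 macrophage markers and of 8 endothelial markers in each of the 24 libraries (log axis), by state and genotype, with each point a library and each bar a group mean. The macrophage sum of mdx AMuSC replicate 1 (4198 CPM) stands above every other library, and mdx myoblast replicate 2 (174 CPM) stands above the other myoblasts.

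Most of the 32 members were highest in myotubes. By the highest of the 8 group means of each gene, 22 had their highest level in myotubes, 7 in FiMuSCs (Cd36, Fabp4, Lpl, Echs1, Eci2, Ppara and Ppard), 2 in myoblasts (Acsl5 and Cpt1a) and 1 in AMuSCs (Fabp5). Differentiation in culture was tested first, with edgeR's quasi-likelihood test fitted over all genes and an adjusted p (Benjamini-Hochberg) under 0.05 as the threshold. In mdx cells, 21 of the 32 members were higher and 3 lower in myotubes than in myoblasts, where 25.8% of all genes tested were called higher and 26.5% lower. In WT cells, 26 of 31 members tested were higher and 3 lower, where 34.9% of all genes were called higher and 34.5% lower. The median log2 fold change of the members was 1.12 in mdx and 1.47 in WT, beside −0.07 and −0.02 over all genes tested. The 21 members higher in mdx myotubes were all higher in WT myotubes too, and the 3 lower members, Fabp5, Acsl5 and Cpt1a, were lower in both genotypes.

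Injury gave a more divided picture. In mdx cells, 12 of 32 members were higher and 2 lower in AMuSCs than in FiMuSCs, where 15.5% of all genes were called higher and 11.7% lower. In WT cells, 12 of 31 members tested were higher and 10 lower, where 31.6% were called higher and 33% lower. The share of members higher was thus 37.5% in mdx and 38.7% in WT, and the members' median log2 fold change was 0.40 and −0.12, beside −0.02 and −0.08 over all genes. The 11 members higher in both genotypes were Fabp5, Acsl4, Acsl5, Slc25a20, Cpt2, Acadl, Acads, Hadha, Hadhb, Etfa and Etfb, and the 2 lower in both were Fabp4 and Ppard. A further 8, Cd36, Lpl, Acadvl, Echs1, Eci2, Decr1, Ppara and Ucp2, passed the test as lower in WT alone. Hadh passed as higher in WT alone and Etfdh in mdx alone. The mdx comparison rests on more variable libraries: without each of its 6 libraries in turn it called between 9 and 17 members, against 14 with all of them, and the WT comparison between 20 and 24, against 22.

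Between the genotypes, members passed the test in sorted cells and not in culture. In AMuSCs, 8 of 32 members were higher in mdx than in WT, where 14.8% of all genes were called higher, and 0 were lower, where 8.95% were called lower (edgeR; with an unadjusted p under 0.05, 0 members were lower, and DESeq2 called 0 lower). The 8 were Ucp2, Cpt1a, Eci2, Acadvl, Cd36, Fabp4, Slc25a20 and Ppard. In FiMuSCs, Fabp5 alone was higher in mdx, where 5.82% of all genes were called higher, and Lpl alone was lower, where 3.85% were called lower. In myoblasts 0 of 31 members tested passed (edgeR; DESeq2 called 4, and the unadjusted p was under 0.05 for 6), where 0.36% of all genes were called in either direction. In myotubes 0 of 31 passed likewise (edgeR; 6 at an unadjusted p under 0.05, all lower in mdx, and 2 by DESeq2), where 0.591% were called. The AMuSC count depended on the 3 WT AMuSC libraries: without WT AMuSC replicate 1, 2 or 3 it was 2, 3 and 3 members. Only Cpt1a and Ucp2 of the 8 kept an adjusted p under 0.05 in every alternative run. The absence of lower members also depended on single libraries. Without mdx AMuSC replicate 2, edgeR called Acsl4 (−0.45, adjusted p = 0.047) and Acsl5 (−0.38, adjusted p = 0.0261) lower in mdx. Without mdx AMuSC replicate 1 it called Fabp5 lower (−0.45, adjusted p = 0.0443).

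The difference between the 2 genotypes' injury responses was tested as an interaction over the 12 sorted libraries. It was positive for 4 of 32 members, Cd36, Acadvl, Ppard and Ucp2, where 8.14% of all genes had a positive difference, and negative for 2, Fabp5 and Acsl4, where 6.98% had a negative one. The corresponding difference between the 2 differentiation responses passed for 0 of 32 members (edgeR; 7 at an unadjusted p under 0.05, all of them smaller in mdx, and 1, Eci1, by DESeq2), where 0.0592% of all genes passed. The 7 myogenic differentiation markers summed to between 33300 and 36811 CPM in mdx myotubes, against 41518 to 43151 CPM in WT myotubes, and the part of this gap in the members' levels was not tested.

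**Figure D2:**
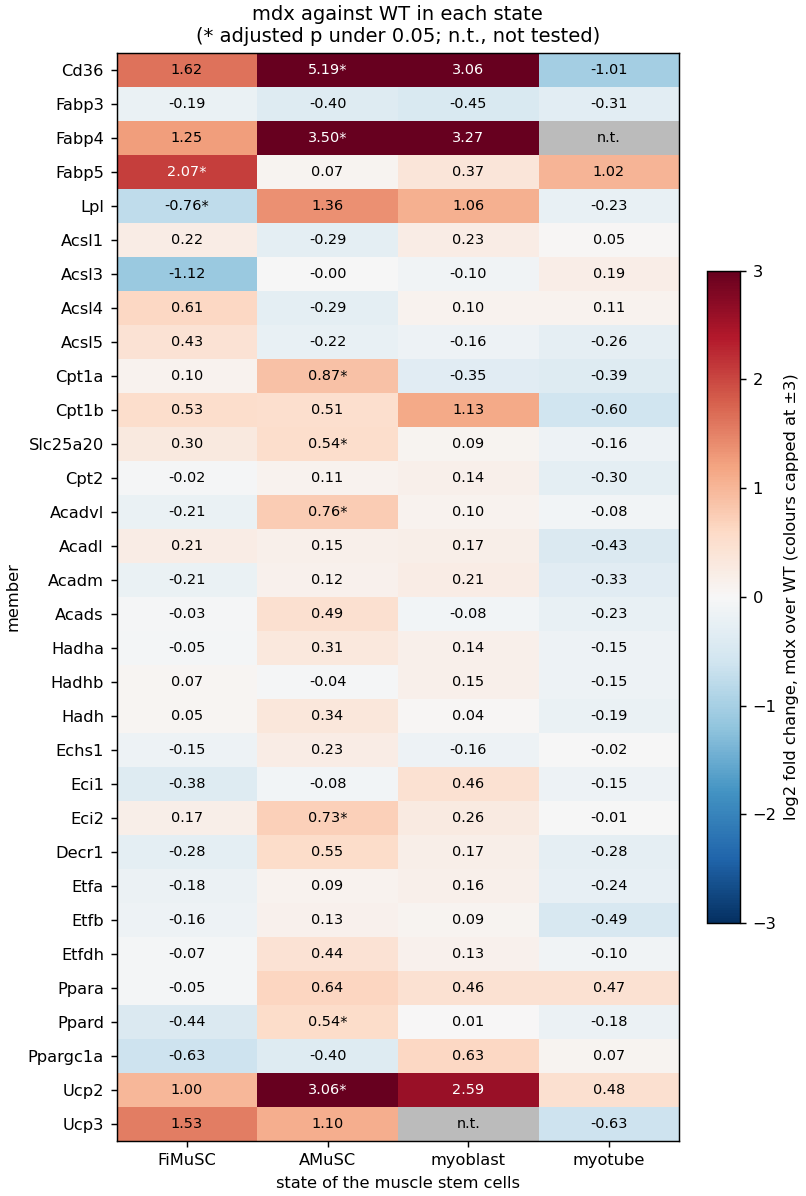
Log2 fold change of mdx over WT for each of the 32 members (rows, by role) in the 4 states (columns), with an asterisk where the adjusted p was under 0.05 and n.t. where a gene had too few reads to be tested. The asterisks are 8 in AMuSCs and 2 in FiMuSCs, and none stand in the myoblast and myotube columns.

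The uptake and binding genes include several that other cell types of muscle express as well. Cd36 (chr5:17781690-17888801, minus strand) encodes the long-chain fatty acid receptor and is also a gene of endothelial cells and macrophages. It was at 247, 96.5 and 110.2 CPM in mdx FiMuSCs, against 67.8, 34.4 and 46.8 CPM in WT FiMuSCs, and at 142, 19.7 and 34.9 CPM in mdx AMuSCs, against 0.895, 1.95 and 2.53 CPM in WT AMuSCs. In culture it was at 0.241, 16 and 0.581 CPM in mdx myoblasts, against 0.415, 1.25 and 0.391 CPM in WT myoblasts, and at 43.3, 97.9 and 60.7 CPM in mdx myotubes, against 122, 137 and 146 CPM in WT myotubes. In FiMuSCs all mdx libraries lay above all WT libraries, but the difference did not pass (log2 fold change 1.62 ± 0.42 with its standard error, adjusted p = 0.064).

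In AMuSCs the gap in Cd36 was wider and passed (5.19 ± 1.00, adjusted p = 0.0203). The highest library, mdx AMuSC replicate 1, was also the one with the most macrophage RNA, and without it the log2 fold change was 3.91, adjusted p = 0.00304. Without WT AMuSC replicate 1, 2 or 3 the adjusted p was 0.0915, 0.0883 and 0.0713, and with a replicate block it was 0.108. After injury the log2 fold change of Cd36 in mdx was −1.22 ± 0.80 (adjusted p = 0.319), and −2.45, adjusted p = 0.0129 without mdx AMuSC replicate 1, while in WT it fell by 4.71 ± 0.45 (adjusted p = 0.000172). The difference between those responses was 3.46 ± 1.00 (adjusted p = 0.0431), and without mdx AMuSC replicate 1 it was 2.19, adjusted p = 0.0777. This call was lost in 12 of 20 alternatives, among them 9 of 12 omissions of a single library (adjusted p up to 0.121 over all alternatives). The part of macrophage and endothelial RNA in the Cd36 levels of sorted cells was not tested.

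With differentiation Cd36 had a log2 fold change of 3.61 ± 1.45 in mdx cultures (adjusted p = 0.0798) and rose by 7.63 ± 0.42 in WT cultures (adjusted p = 1.95e-05). In mdx the myoblast values were spread, since replicate 2 had 16 CPM of Cd36 and the other 2 had 0.241 and 0.581 CPM. Besides its macrophage markers, replicate 2 had sums of 763 CPM for myogenic differentiation markers (186 and 179 CPM in replicates 1 and 3), 393 CPM for mature myofibre markers (97.7 and 84.1 CPM) and 60.9 CPM for fibro-adipogenic markers (6.07 and 14.4 CPM). Their part in its Cd36 level was not tested. Without that library the mdx log2 fold change was 7.42, adjusted p = 0.000537. Myotubes of both genotypes had macrophage marker sums of 14.3 CPM or less.

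The 3 fatty acid binding proteins took turns along the states. Fabp4 (chr3:10204088-10208576) is best known from adipocytes, macrophages and capillary endothelium, Fabp5 (chr3:10012548-10016607) is the widely expressed epidermal form, and Fabp3 (chr4:130308595-130315463) is the heart and muscle form. Of their summed TPM, Fabp4 held 67.8% to 89.1% in mdx FiMuSCs and 85.9% to 89.7% in WT FiMuSCs. Fabp5 held 76.9% to 93.4% in mdx AMuSCs and 94% to 99.2% in WT AMuSCs, and 73.4% to 97.1% in mdx myoblasts and 80.4% to 92.3% in WT myoblasts. In myotubes Fabp3 held 95.5% to 97.4% in mdx and 98.2% to 99.1% in WT.

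Fabp4 was at 252, 83.8 and 75.5 CPM in mdx FiMuSCs, against 77.8, 42.5 and 53.8 CPM in WT FiMuSCs, and at 6.76, 6.64 and 15 CPM in mdx AMuSCs, against 0.267, 0.471 and 1.74 CPM in WT AMuSCs. Cultured cells had 0.189, 6.46 and 0.809 CPM in mdx myoblasts, against 0.342, 0.25 and 0.187 CPM in WT myoblasts, and 0.088, 0.164 and 1.27 CPM in mdx myotubes, against 0, 0.0338 and 0 CPM in WT myotubes. Fabp4 fell after injury in both genotypes (−3.85 ± 0.66 in mdx, adjusted p = 0.00969, and −6.03 ± 0.67 in WT, adjusted p = 0.000343). The endothelial marker sum moved with it, at 22.2 to 55 CPM in AMuSC libraries, against 249 CPM or more in every FiMuSC library. In AMuSCs Fabp4 was higher in mdx (3.50 ± 0.78, adjusted p = 0.0229), and no mdx library overlapped with WT, though this call was lost without WT AMuSC replicate 1 (adjusted p = 0.0582) or 2 (adjusted p = 0.0916). The share of endothelial or macrophage RNA in these Fabp4 levels was not tested. The adipocyte marker Adipoq was at or below 0.176 CPM in all FiMuSC and AMuSC libraries.

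Fabp5 was at 37.1, 25.4 and 44 CPM in mdx FiMuSCs, against 11.4, 7.6 and 6.38 CPM in WT FiMuSCs, and at 147, 67.4 and 61.5 CPM in mdx AMuSCs, against 82.3, 78.7 and 97 CPM in WT AMuSCs. Its culture levels were 50.7, 40.4 and 28.7 CPM in mdx myoblasts, against 33.2, 29.2 and 30.8 CPM in WT myoblasts, and 2.73, 5.4 and 11.4 CPM in mdx myotubes, against 2.19, 4.02 and 3.35 CPM in WT myotubes. In FiMuSCs it was the 1 member higher in mdx (2.07 ± 0.28, adjusted p = 0.00879), with no overlap between the genotypes, and this call held in every alternative run (highest adjusted p 0.0447). Without mdx FiMuSC replicate 1, the library with the most endothelial RNA, the log2 fold change was 2.03, adjusted p = 0.0178. The mdx FiMuSC libraries also had more macrophage RNA than the WT ones, and its part in the Fabp5 level was not tested.

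After injury Fabp5 rose in mdx by 1.36 ± 0.37 (adjusted p = 0.0348) and in WT by 3.44 ± 0.22 (adjusted p = 9.91e-06). The smaller response in mdx differed from that in WT (−2.10 ± 0.47, adjusted p = 0.0153), the only difference of injury responses among the members that held in every alternative. In AMuSCs themselves the difference between genotypes was 0.07 ± 0.35 (adjusted p = 0.909), and without mdx AMuSC replicate 1, the highest library, it was −0.45, adjusted p = 0.0443. The mdx call of a rise after injury was lost without each of mdx FiMuSC replicates 1, 2 and 3 and mdx AMuSC replicate 2 (adjusted p up to 0.145). With differentiation Fabp5 fell in both genotypes (−2.59 ± 0.52 in mdx, adjusted p = 0.00701, and −3.28 ± 0.21 in WT, adjusted p = 5.32e-06).

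Fabp3 was at 0.999, 0.587 and 0.49 CPM in mdx FiMuSCs, against 0.867, 0.7 and 0.82 CPM in WT FiMuSCs, and at 2.14, 0.408 and 0.454 CPM in mdx AMuSCs, against 0.251, 3.48 and 0.197 CPM in WT AMuSCs. It was at 0.98, 5.63 and 1.09 CPM in mdx myoblasts, against 1.87, 5.54 and 3.24 CPM in WT myoblasts, and at 84.6, 148 and 215 CPM in mdx myotubes, against 191, 171 and 189 CPM in WT myotubes. The rise with differentiation was 5.87 ± 0.85 in mdx (adjusted p = 0.00181) and 5.70 ± 0.42 in WT (adjusted p = 0.000111). In sorted cells Fabp3 was low throughout, and the 1 WT AMuSC library above 1 CPM, replicate 2, also had the highest sum of the 7 myogenic differentiation markers among the AMuSC libraries (900.3 CPM). Without it Fabp3 was lower in WT AMuSCs than in WT FiMuSCs (−1.71, adjusted p = 0.015), where with it the log2 fold change was 0.79 ± 1.10 (adjusted p = 0.559). Reads of Fabp3 and of the pseudogene Fabp3-ps1 are hard to tell apart, and 8.55% of their summed reads were given to the pseudogene. The 4 pseudogenes of Fabp5 held 2.51% of the reads of that family. These shares are over all 24 libraries. In a single library the share reached 24.5% for Fabp3-ps1 and 30.1% for the Fabp5 pseudogene Gm6166.

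Lpl (chr8:68880491-68907448) encodes lipoprotein lipase, the secreted enzyme that frees fatty acids from circulating triglyceride. It was at 155, 120.3 and 133 CPM in mdx FiMuSCs, against 248, 229 and 221 CPM in WT FiMuSCs, and at 313, 63.5 and 66.9 CPM in mdx AMuSCs, against 56.8, 58.5 and 55.5 CPM in WT AMuSCs. In the cultures Lpl was at 29.5, 93.2 and 28.3 CPM in mdx myoblasts, against 22.8, 20.9 and 29.4 CPM in WT myoblasts, and at 33.2, 42.9 and 37.5 CPM in mdx myotubes, against 40.1, 48.6 and 44 CPM in WT myotubes. Lpl was lower in mdx than in WT FiMuSCs (−0.76 ± 0.11, adjusted p = 0.0122), with all mdx libraries below all WT libraries. Among the markers of fibro-adipogenic progenitors, Dpt was also lower and Pdgfra and Ly6a were higher in mdx FiMuSCs by the test, and their part in the Lpl level was not tested. The Lpl call was lost without mdx FiMuSC replicate 2 (adjusted p = 0.0556) or 3 (adjusted p = 0.0513) and in a fit of all 24 libraries (adjusted p = 0.432).

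After injury the log2 fold change of Lpl was 0.10 ± 0.64 in mdx (adjusted p = 0.925), and it fell by 1.94 ± 0.08 in WT (adjusted p = 6.17e-07). In mdx 1 library decided the value: mdx AMuSC replicate 1 had 313 CPM, the other mdx AMuSC libraries 63.5 and 66.9 CPM. This was also the library with 4198 CPM of macrophage markers. Without that library Lpl fell in mdx too (−1.05, adjusted p = 0.00447), and the difference from the WT response was 0.84, adjusted p = 0.0085, where with all libraries it was 2.02 ± 0.70 (adjusted p = 0.0785). With differentiation the log2 fold change of Lpl was −0.38 ± 0.48 in mdx (adjusted p = 0.54), with mdx myoblast replicate 2 at 93.2 CPM. That myoblast library had 174 CPM of macrophage markers, and the part of macrophage RNA in the Lpl levels was not tested. In WT Lpl rose by 0.87 ± 0.14 (adjusted p = 0.000691), a call lost in the fit of all 24 libraries (adjusted p = 0.156).

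**Figure D3:**
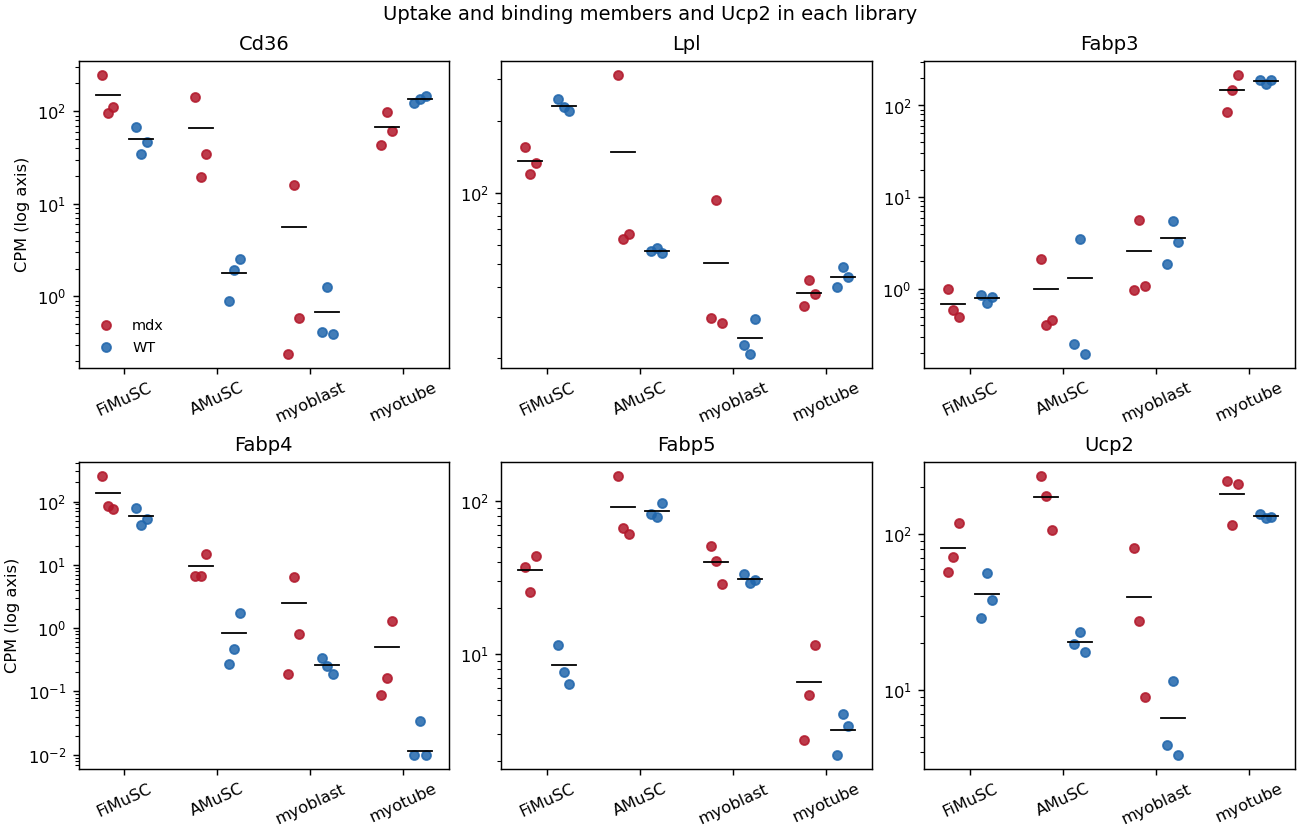
CPM (log axis) of Cd36, Lpl, Fabp3, Fabp4, Fabp5 and Ucp2 in each library by state, with mdx left of WT, points for libraries and bars for group means, and values below 0.01 CPM drawn at 0.01. Fabp4 is highest in FiMuSCs (42.5 to 252 CPM), Fabp5 in AMuSCs (61.5 to 147 CPM) and Fabp3 in myotubes (84.6 to 215 CPM).

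The 4 acyl-CoA synthetases, which activate fatty acids by joining them to coenzyme A, split by state. Acsl1 is the main form of oxidative tissues, Acsl3 sits on the endoplasmic reticulum and lipid droplets, Acsl4 prefers arachidonic acid and Acsl5 is found on mitochondria and the endoplasmic reticulum. Acsl1 was at 15.9, 13.7 and 16.2 CPM in mdx FiMuSCs, against 14.1, 14.5 and 10.8 CPM in WT FiMuSCs, and at 17, 10.3 and 11.7 CPM in mdx AMuSCs, against 15, 17.7 and 14.3 CPM in WT AMuSCs. In culture Acsl1 was at 16.5, 22.3 and 26.1 CPM in mdx myoblasts, against 15.5, 22.8 and 17.3 CPM in WT myoblasts, and at 94.5, 155 and 190.3 CPM in mdx myotubes, against 146, 130.5 and 147 CPM in WT myotubes. Every myotube library stood above every other library for Acsl1, and the same held for Acsl3. Acsl3 was at 23.8, 50.7 and 30.1 CPM in mdx FiMuSCs, against 60.6, 120.5 and 47.1 CPM in WT FiMuSCs, and at 56.4, 79.5 and 64 CPM in mdx AMuSCs, against 62.2, 76.2 and 57.8 CPM in WT AMuSCs. In culture Acsl3 was at 84.6, 95.3 and 105 CPM in mdx myoblasts, against 102, 111 and 95.1 CPM in WT myoblasts, and at 619, 621 and 652 CPM in mdx myotubes, against 468, 689.5 and 497 CPM in WT myotubes. Both rose with differentiation, Acsl3 by 2.76 ± 0.11 in mdx (adjusted p = 4.25e-05) and 2.44 ± 0.17 in WT (adjusted p = 1.44e-05), and Acsl1 by 2.78 ± 0.30 in mdx (adjusted p = 0.000511) and 2.94 ± 0.15 in WT (adjusted p = 3.47e-06). Neither passed the test after injury in either genotype, and 2 mdx FiMuSC libraries lay below all other sorted libraries for Acsl3. Some alternatives did call Acsl3 higher after injury in mdx, among them DESeq2 (0.93, adjusted p = 0.0108) and the fit of all 24 libraries (0.94, adjusted p = 0.0142). The same 2 called Acsl3 lower in mdx than in WT FiMuSCs (−1.11, adjusted p = 0.0302, and −1.13, adjusted p = 0.0197), as did a replicate block (adjusted p = 0.0287). Acsl3 shares 244 exon bases with Utp14b on the same strand, where reads can belong to either gene.

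Acsl5 ran the other way in culture. It was at 49.3, 28.7 and 34.2 CPM in mdx FiMuSCs, against 31.8, 24.6 and 27.4 CPM in WT FiMuSCs, and at 62.9, 81.5 and 59.8 CPM in mdx AMuSCs, against 78.3, 73.7 and 79.9 CPM in WT AMuSCs. In culture it was at 92.7, 71.8 and 83.5 CPM in mdx myoblasts, against 87.1, 107 and 84.5 CPM in WT myoblasts, and at 23.5, 21.9 and 21.7 CPM in mdx myotubes, against 26.1, 31.9 and 22.3 CPM in WT myotubes. It fell with differentiation by 1.86 ± 0.13 in mdx (adjusted p = 0.000104) and 1.78 ± 0.15 in WT (adjusted p = 4.12e-05), and rose after injury by 0.86 ± 0.23 in mdx (adjusted p = 0.0292) and 1.56 ± 0.11 in WT (adjusted p = 5.69e-06). The mdx rise after injury was lost without mdx FiMuSC replicate 2 or 3 or mdx AMuSC replicate 2 or 3 (adjusted p up to 0.0987).

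Acsl4 was at 48.1, 64.3 and 82.7 CPM in mdx FiMuSCs, against 54.1, 37 and 37 CPM in WT FiMuSCs, and at 91.7, 138 and 120.3 CPM in mdx AMuSCs, against 142, 151 and 127 CPM in WT AMuSCs. Its culture levels were 433, 252 and 243 CPM in mdx myoblasts, against 298, 325 and 249 CPM in WT myoblasts, and 441, 506 and 593 CPM in mdx myotubes, against 394, 576 and 452 CPM in WT myotubes. It rose after injury by 0.84 ± 0.24 in mdx (adjusted p = 0.036) and by 1.80 ± 0.16 in WT (adjusted p = 3.03e-05), with no overlap between the states in either genotype. The difference between the responses was −0.99 ± 0.30 (adjusted p = 0.0449) and was lost in 12 of 20 alternatives, among them 9 of 12 omissions of a single library (adjusted p up to 0.115). The rise in mdx was lost without mdx FiMuSC replicate 1 or 2 or mdx AMuSC replicate 2 or 3 (adjusted p up to 0.111), and the rise with differentiation in mdx (0.75 ± 0.25, adjusted p = 0.0411) without 5 of its 6 libraries in turn, all but mdx myoblast replicate 1. Of the summed TPM of the 4 synthetases, Acsl3 held 54.5% to 58.3% in mdx myotubes and 46.7% to 50.7% in WT myotubes, and Acsl5 held 38.2% to 39.9% in mdx AMuSCs and 38.2% to 45.1% in WT AMuSCs.

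The sequence upstream of the members' starts was read from RefSeq windows of 250 bases before to 50 bases after each start (GRCm38.p6), which held 27 of the 32 members; Fabp4, Fabp5, Lpl, Decr1 and Cpt1b were not among them. They were searched on both strands for 4 motifs. These were the E-box CAGCTG, which MyoD-family myogenic factors are known to bind, the DR1 element AGGTCANAGGTCA of PPAR and RXR, the element TCAAGGTCA of the ERR receptors, and TATAAA. The ERR element holds the AGGTCA unit of DR1, and CAGCTG reads the same on both strands. The E-box was in 7 of the 27 members, beside 18.3% of all 27025 genes with a window. DR1, TCAAGGTCA and TATAAA were in 0 of 27, beside 0.0481%, 0.466% and 15.7% of all genes. A match is only a description of these letters in this window. Stretches with an E-box are shown for 6 of these members, as examples from genes whose values are given by library here. Each is written 5′ to 3′ on the gene's strand with the E-box in capitals, and Ppard has a pair of them.
Acsl1 (chr8:46490893-46490928, plus strand): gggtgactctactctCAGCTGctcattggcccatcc
Acsl3 (chr1:78657593-78657628, plus strand): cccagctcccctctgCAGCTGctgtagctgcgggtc
Cpt1a (chr19:3323254-3323289, plus strand): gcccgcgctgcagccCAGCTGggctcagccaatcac
Ppard (chr17:28232513-28232548, plus strand): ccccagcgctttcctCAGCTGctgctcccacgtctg
Ppard (chr17:28232564-28232599, plus strand): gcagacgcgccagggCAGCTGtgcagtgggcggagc
Ucp2 (chr7:100493118-100493153, plus strand): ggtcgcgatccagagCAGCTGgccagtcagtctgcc
Ucp3 (chr7:100472936-100472971, plus strand): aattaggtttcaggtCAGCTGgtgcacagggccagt
The first base of the E-box lay 58 bases before the start of Acsl1, 217 before that of Acsl3, 32 before that of Cpt1a, 226 and 175 before that of Ppard, 225 before that of Ucp2 and 40 before that of Ucp3. None of these stretches overlapped an annotated exon except that of Cpt1a, by 5 bases. With differentiation these 6 members did not move one way: Acsl1, Acsl3 and Ucp3 were higher in myotubes of both genotypes, Ppard and Ucp2 in WT by the test, and Cpt1a was lower in both. The Ppard call was lost with an offset for transcript length (adjusted p = 0.265) and in the fit of all 24 libraries (adjusted p = 0.182).

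The carnitine shuttle changed its first enzyme with differentiation. Cpt1a (chr19:3322334-3385733) encodes the form best known from liver and Cpt1b (chr15:89416405-89425863) the muscle form, which is the more sensitive to malonyl-CoA. Cpt1a was at 192, 223 and 209 CPM in mdx FiMuSCs, against 157, 283 and 145 CPM in WT FiMuSCs, and at 186, 237 and 227 CPM in mdx AMuSCs, against 113, 114 and 122 CPM in WT AMuSCs. Cultures had Cpt1a at 308, 278 and 325 CPM in mdx myoblasts, against 376, 359.7 and 433 CPM in WT myoblasts, and at 40.2, 39.4 and 39.9 CPM in mdx myotubes, against 59.2, 54.4 and 42.4 CPM in WT myotubes. Cpt1a fell with differentiation by 2.90 ± 0.10 in mdx (adjusted p = 4.08e-05) and 2.89 ± 0.13 in WT (adjusted p = 1.53e-06), and myoblasts and myotubes did not overlap.

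Cpt1b was at 5.6, 8.17 and 7.51 CPM in mdx FiMuSCs, against 6.74, 5.04 and 3.06 CPM in WT FiMuSCs, and at 6.95, 3.76 and 6.88 CPM in mdx AMuSCs, against 3.74, 3.26 and 5.27 CPM in WT AMuSCs. In culture Cpt1b was at 3.64, 2.83 and 0.328 CPM in mdx myoblasts, against 1.39, 1.7 and 0.0679 CPM in WT myoblasts, and at 38.8, 61.6 and 37.6 CPM in mdx myotubes, against 88.4, 39 and 80.5 CPM in WT myotubes. It rose with differentiation by 4.35 ± 0.78 in mdx (adjusted p = 0.00436) and 6.06 ± 0.88 in WT (adjusted p = 0.00231). Of the summed TPM of the pair, Cpt1b held 9.85% to 12.9% in mdx FiMuSCs and 8.51% to 14.5% in WT FiMuSCs, 2.48% to 19.8% in mdx AMuSCs and 6.76% to 15.9% in WT AMuSCs, and 0.732% to 2.32% in mdx myoblasts and 0.168% to 0.79% in WT myoblasts. In myotubes it held 75.6% to 86.4% in mdx and 72.6% to 88.3% in WT. The first enzyme of the shuttle was thus mostly Cpt1a transcript in all states but myotubes, where it was mostly Cpt1b, in every library of both genotypes.

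In AMuSCs Cpt1a was higher in mdx than in WT (0.87 ± 0.12, adjusted p = 0.00433). No mdx AMuSC library overlapped with WT, and the call held in every alternative (highest adjusted p 0.0368). In FiMuSCs the corresponding value was 0.10 ± 0.25 (adjusted p = 0.847), and the difference between the injury responses was 0.68 ± 0.30 (adjusted p = 0.155), which does not show that the effect of genotype differs between the sorted states.

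Slc25a20 encodes the carnitine and acylcarnitine carrier of the inner membrane, and Cpt2 the enzyme that hands the acyl group back to coenzyme A inside it. Slc25a20 was at 18.8, 15.2 and 18.2 CPM in mdx FiMuSCs, against 12.8, 15.8 and 14 CPM in WT FiMuSCs, and at 27.4, 35.5 and 26.2 CPM in mdx AMuSCs, against 20.4, 21 and 18.6 CPM in WT AMuSCs. Its culture levels were 32.6, 31.5 and 32.4 CPM in mdx myoblasts, against 28.7, 30.2 and 32.9 CPM in WT myoblasts, and 47.5, 65 and 59.8 CPM in mdx myotubes, against 64.6, 62.7 and 63.8 CPM in WT myotubes. It rose after injury (0.77 ± 0.18 in mdx, adjusted p = 0.017, and 0.58 ± 0.12 in WT, adjusted p = 0.00281) and with differentiation (0.86 ± 0.12 in mdx, adjusted p = 0.0015, and 1.07 ± 0.07 in WT, adjusted p = 3.88e-06). The mdx rise after injury was lost without mdx FiMuSC replicate 2 (adjusted p = 0.066). Its higher level in mdx AMuSCs (0.54 ± 0.14, adjusted p = 0.028) was lost without any 1 WT AMuSC library or mdx AMuSC replicate 2 (adjusted p 0.0568 to 0.123).

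Cpt2 was at 16.5, 16.7 and 15.6 CPM in mdx FiMuSCs, against 13.9, 18 and 17.9 CPM in WT FiMuSCs, and at 25.3, 40.8 and 27.7 CPM in mdx AMuSCs, against 26.3, 28.4 and 30.3 CPM in WT AMuSCs. Among cultures Cpt2 stood at 25.6, 26.1 and 26.7 CPM in mdx myoblasts, against 21, 25.5 and 25.1 CPM in WT myoblasts, and at 32.4, 39.1 and 33.3 CPM in mdx myotubes, against 44.7, 44.4 and 39 CPM in WT myotubes. It rose after injury by 0.94 ± 0.21 in mdx (adjusted p = 0.0153) and 0.86 ± 0.13 in WT (adjusted p = 0.000492), and with differentiation by 0.44 ± 0.11 in mdx (adjusted p = 0.0132) and 0.85 ± 0.10 in WT (adjusted p = 0.000134). The mdx rise with differentiation was lost with an offset for transcript length (0.50, adjusted p = 0.135). The genotypes overlapped in Cpt2 in every state but myoblasts, and none of these differences passed.

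**Figure D4:**
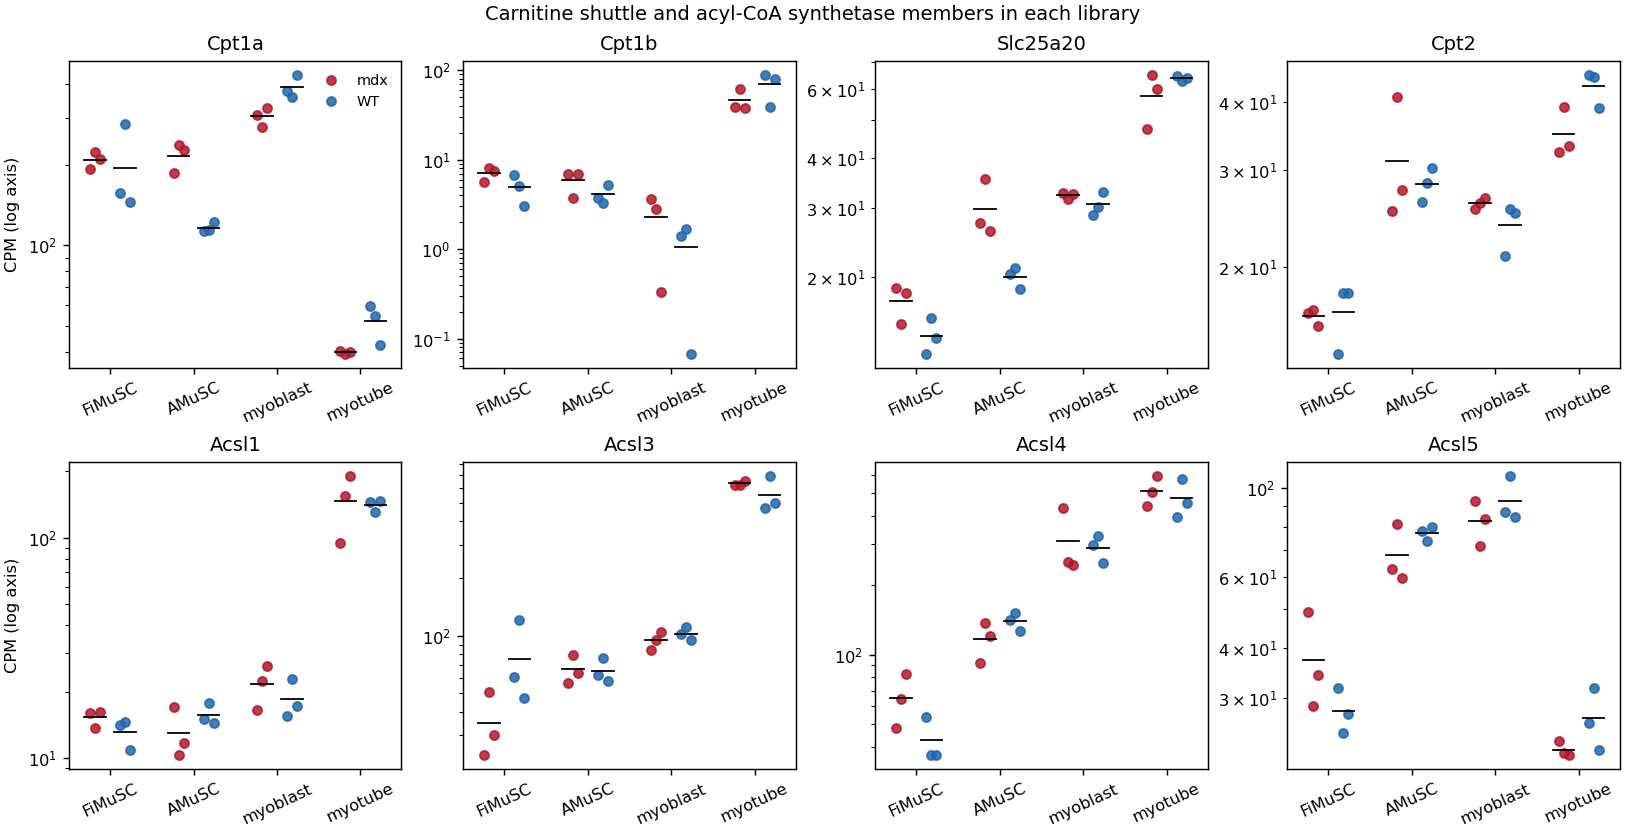
CPM (log axis) of Cpt1a, Cpt1b, Slc25a20, Cpt2, Acsl1, Acsl3, Acsl4 and Acsl5 in each library by state, with mdx left of WT, points for libraries and bars for group means. Cpt1a is lowest in myotubes (group means 39.9 and 52 CPM in mdx and WT), where Cpt1b is highest (46 and 69.3 CPM).

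The enzymes of the mitochondrial matrix and of electron transfer, 14 members, were mostly higher in myotubes than in myoblasts. With differentiation 11 of the 14 rose and 0 fell in mdx, and 12 rose and 0 fell in WT (edgeR), beside 25.8% higher of all genes in mdx and 34.9% in WT. After injury 7 rose and 0 fell in mdx, beside 15.5% higher and 11.7% lower of all genes. In WT 7 rose and 4 fell, beside 31.6% and 33%, so that the 4 lower of 14 (28.6%) lay near the share of all genes. In each of the 3 comparisons with 0 lower, DESeq2 also called 0 lower, and 0 were lower by an unadjusted p under 0.05. Their summed TPM was 828 ± 13.4 in mdx FiMuSCs and 882 ± 92.2 in WT FiMuSCs (SD, n = 3 each), 1126 ± 98.1 in mdx AMuSCs and 864 ± 1.82 in WT AMuSCs, 727 ± 29.9 in mdx myoblasts and 610.0 ± 28.6 in WT myoblasts, and 1316 ± 91.3 in mdx myotubes and 1551 ± 48.3 in WT myotubes. In AMuSCs 2 of the 14, Acadvl and Eci2, were higher in mdx than in WT (14.3%, beside 14.8% of all genes), a count that lay between 0 and 4 as each library was left out.

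The acyl-CoA dehydrogenases take the first step of each turn, for very long, long, medium and short chains. Acadl, the long-chain form, was at 73.8, 70.8 and 67.6 CPM in mdx FiMuSCs, against 61.6, 63.8 and 58.4 CPM in WT FiMuSCs, and at 133, 218 and 158 CPM in mdx AMuSCs, against 138, 162 and 148 CPM in WT AMuSCs. In culture Acadl was at 119, 113 and 117 CPM in mdx myoblasts, against 93.3, 116 and 104 CPM in WT myoblasts, and at 313, 413 and 409 CPM in mdx myotubes, against 571, 477 and 478 CPM in WT myotubes. It rose in all 4 comparisons between states, after injury by 1.26 ± 0.20 in mdx (adjusted p = 0.00454) and 1.37 ± 0.09 in WT (adjusted p = 3.84e-06), and with differentiation by 1.73 ± 0.12 in mdx (adjusted p = 0.000108) and 2.30 ± 0.11 in WT (adjusted p = 9.45e-07). No AMuSC library overlapped with an FiMuSC library of either genotype.

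Acadvl, the membrane-bound form for very long chains, did not follow Acadl after injury. It was at 82, 81.2 and 81.2 CPM in mdx FiMuSCs, against 86.6, 97.2 and 99.1 CPM in WT FiMuSCs, and at 79.3, 113 and 72.7 CPM in mdx AMuSCs, against 49.3, 52.3 and 51.8 CPM in WT AMuSCs. In culture Acadvl was at 90.5, 89.3 and 106 CPM in mdx myoblasts, against 91.3, 90.8 and 87.2 CPM in WT myoblasts, and at 171, 211 and 245 CPM in mdx myotubes, against 222, 217 and 220.5 CPM in WT myotubes. After injury its log2 fold change in mdx was 0.11 ± 0.19 (adjusted p = 0.69), while in WT it fell by 0.80 ± 0.09 (adjusted p = 6.76e-05). The difference between these responses passed (0.88 ± 0.21, adjusted p = 0.0164), except without WT FiMuSC replicate 3 (adjusted p = 0.056). In AMuSCs Acadvl was higher in mdx (0.76 ± 0.15, adjusted p = 0.0131) with no overlap, a call lost without any 1 WT AMuSC library (adjusted p 0.059 to 0.0727). With differentiation it rose in both genotypes, by 1.16 ± 0.15 in mdx (adjusted p = 0.000854) and 1.30 ± 0.05 in WT (adjusted p = 4.42e-07).

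The other dehydrogenases rose with differentiation too. Acadm, the medium-chain form, averaged 135 ± 39.7 CPM in mdx myotubes and 168 ± 3.09 CPM in WT myotubes, against 32.6 ± 5.6 CPM in mdx myoblasts and 28.4 ± 3.82 CPM in WT myoblasts (SD, n = 3 each). Acads, the short-chain form, averaged 96.7 ± 19.9 CPM in mdx myotubes and 113 ± 2.31 CPM in WT myotubes, against 47.5 ± 3.85 CPM in mdx myoblasts and 50.5 ± 2.71 CPM in WT myoblasts. The log2 fold change of Acadm was 2.07 in mdx and 2.58 in WT, and that of Acads 1.05 and 1.17, all with an adjusted p of 0.00188 or less. After injury Acads rose in both genotypes (1.06 ± 0.19 in mdx and 0.60 ± 0.11 in WT), and Acadm did not pass (−0.06 ± 0.15 in mdx and −0.33 ± 0.13 in WT).

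Hadha and Hadhb encode the alpha and beta subunits of the trifunctional protein, which runs the last 3 steps of a turn for long chains. Their genes lie head to head on chromosome 5, Hadha on the minus strand (chr5:30118304-30155162) and Hadhb on the plus strand (chr5:30155248-30184593). The 85 bases between their annotated starts are shown, since both genes are transcribed away from them (GRCm38, plus strand, 69.4% G or C, no annotated exon; capitals are not used).
Hadha to Hadhb (chr5:30155163-30155247): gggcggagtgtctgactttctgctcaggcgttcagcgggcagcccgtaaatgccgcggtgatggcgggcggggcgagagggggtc
Hadha was at 109, 112 and 111 CPM in mdx FiMuSCs, against 101, 119 and 125 CPM in WT FiMuSCs, and at 181, 259 and 181 CPM in mdx AMuSCs, against 160.4, 169.9 and 159 CPM in WT AMuSCs. In culture Hadha was at 113, 109 and 114 CPM in mdx myoblasts, against 101, 109.6 and 96.6 CPM in WT myoblasts, and at 272, 339 and 339 CPM in mdx myotubes, against 353, 342 and 356 CPM in WT myotubes. Every AMuSC and myotube library stood above every FiMuSC and myoblast library, and the same held for its partner.

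Hadhb was at 65.5, 62.4 and 61.7 CPM in mdx FiMuSCs, against 61.1, 58.3 and 62 CPM in WT FiMuSCs, and at 101, 147 and 109.9 CPM in mdx AMuSCs, against 118, 119.8 and 123 CPM in WT AMuSCs. In culture Hadhb was at 73.1, 78.2 and 75.8 CPM in mdx myoblasts, against 63.2, 79.5 and 63.4 CPM in WT myoblasts, and at 194, 248 and 259 CPM in mdx myotubes, against 259.6, 256 and 257 CPM in WT myotubes. Both subunits rose in all 4 comparisons between states. After injury Hadha rose by 0.90 ± 0.18 in mdx (adjusted p = 0.0104) and 0.59 ± 0.10 in WT (adjusted p = 0.000894), and Hadhb by 0.92 ± 0.17 in mdx (adjusted p = 0.00852) and 1.08 ± 0.08 in WT (adjusted p = 5.70e-06). With differentiation Hadha rose by 1.52 ± 0.10 in mdx (adjusted p = 0.000105) and 1.79 ± 0.07 in WT (adjusted p = 4.07e-07), and Hadhb by 1.65 ± 0.12 in mdx (adjusted p = 0.000114) and 1.92 ± 0.10 in WT (adjusted p = 1.65e-06). The genotypes did not differ by the test in either gene in any state.

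The short-chain enzymes of the same steps changed less with differentiation. Hadh, the hydroxyacyl-CoA dehydrogenase, averaged 79.3 ± 21.5 CPM in mdx myotubes and 90 ± 2.22 CPM in WT myotubes, against 49 ± 1.77 CPM in mdx myoblasts and 48 ± 2.29 CPM in WT myoblasts (SD, n = 3 each), and rose with differentiation in mdx (0.72 ± 0.19, adjusted p = 0.0198) and WT (0.92 ± 0.06, adjusted p = 3.80e-06). The mdx call was lost without mdx myoblast replicate 2 or 3 or mdx myotube replicate 2 or 3 (adjusted p 0.0568 to 0.0796). After injury Hadh was called higher in WT and not in mdx, and the WT call was lost in the fit of all 24 libraries (adjusted p = 0.247). Echs1, the short-chain enoyl-CoA hydratase, kept its group means between 49.6 ± 3.28 CPM in WT AMuSCs and 65 ± 5.48 CPM in WT FiMuSCs. It was 1 of 2 matrix enzymes, with Eci2, that did not pass with differentiation in either genotype, and its fall after injury in WT (log2 fold change −0.30 ± 0.10, adjusted p = 0.024) was lost without WT FiMuSC replicate 3 or WT AMuSC replicate 1 or 3 (adjusted p up to 0.14). The fall was also lost with an offset for transcript length (−0.09, adjusted p = 0.633) and with a replicate block (adjusted p = 0.0577).

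The auxiliary enzymes prepare unsaturated chains, and 2 of the 3, Eci2 and Decr1, fell after injury in WT. Eci2, an enoyl-CoA isomerase found in mitochondria and peroxisomes, was at 55, 83.8 and 101 CPM in mdx FiMuSCs, against 71.3, 71 and 71.2 CPM in WT FiMuSCs, and at 60, 80.2 and 57.6 CPM in mdx AMuSCs, against 39.8, 39.2 and 38 CPM in WT AMuSCs. In culture Eci2 was at 50.4, 51.8 and 58.2 CPM in mdx myoblasts, against 45.8, 41.5 and 47.4 CPM in WT myoblasts, and at 41.7, 51 and 54.5 CPM in mdx myotubes, against 48.5, 49 and 49.7 CPM in WT myotubes. After injury its log2 fold change in mdx was −0.28 ± 0.24 (adjusted p = 0.441), while in WT it fell by 0.78 ± 0.07 (adjusted p = 3.15e-05), and the difference did not pass (0.47 ± 0.26, adjusted p = 0.259). Its higher level in mdx AMuSCs (0.73 ± 0.13, adjusted p = 0.00884) was lost without WT AMuSC replicate 1 (adjusted p = 0.0507) or 3 (adjusted p = 0.0556).

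Decr1, the dienoyl-CoA reductase, was at 42.9, 38.8 and 34.8 CPM in mdx FiMuSCs, against 46.8, 44.9 and 50.8 CPM in WT FiMuSCs, and at 44.7, 63 and 35.5 CPM in mdx AMuSCs, against 30.3, 33.1 and 32 CPM in WT AMuSCs. In culture Decr1 was at 26.3, 36.7 and 37.2 CPM in mdx myoblasts, against 31.3, 26.6 and 32.2 CPM in WT myoblasts, and at 34.6, 49.7 and 50.1 CPM in mdx myotubes, against 57.6, 49.3 and 55.3 CPM in WT myotubes. After injury its log2 fold change in mdx was 0.29 ± 0.22 (adjusted p = 0.374), while in WT it fell by 0.49 ± 0.09 (adjusted p = 0.00147). With differentiation it was 0.45 ± 0.19 in mdx (adjusted p = 0.0949), and in WT Decr1 rose by 0.86 ± 0.09 (adjusted p = 7.69e-05). Eci1, the mitochondrial isomerase, was at 24.3, 20.7 and 22 CPM in mdx FiMuSCs, against 30.9, 26.2 and 30.7 CPM in WT FiMuSCs, and at 22.4, 30.3 and 21 CPM in mdx AMuSCs, against 22.6, 26.2 and 27.3 CPM in WT AMuSCs. In culture Eci1 was at 20.1, 20.1 and 23.5 CPM in mdx myoblasts, against 14.9, 17.1 and 14.8 CPM in WT myoblasts, and at 34.3, 40.9 and 41 CPM in mdx myotubes, against 41.6, 43.9 and 42.8 CPM in WT myotubes. It rose with differentiation by 0.89 ± 0.12 in mdx (adjusted p = 0.00117) and 1.47 ± 0.09 in WT (adjusted p = 3.20e-06), and the difference between these was −0.55 ± 0.14 (adjusted p = 0.215).

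Electron transfer from the dehydrogenases runs through the ETF subunits Etfa and Etfb and the ubiquinone reductase Etfdh. Etfa was at 59.8, 58.9 and 62.3 CPM in mdx FiMuSCs, against 62.4, 70.9 and 72.1 CPM in WT FiMuSCs, and at 104, 160.1 and 108 CPM in mdx AMuSCs, against 115, 117 and 108 CPM in WT AMuSCs. In culture Etfa was at 82.3, 84.2 and 86.3 CPM in mdx myoblasts, against 72.1, 83.2 and 73.2 CPM in WT myoblasts, and at 177, 213 and 225 CPM in mdx myotubes, against 245, 242 and 238 CPM in WT myotubes. It rose after injury by 1.04 ± 0.19 in mdx (adjusted p = 0.008) and 0.81 ± 0.09 in WT (adjusted p = 7.22e-05), and with differentiation by 1.31 ± 0.10 in mdx (adjusted p = 0.000158) and 1.68 ± 0.07 in WT (adjusted p = 6.85e-07). Etfb averaged 70.8 ± 18.7 CPM in mdx AMuSCs and 63.2 ± 5.09 CPM in WT AMuSCs, against 34.9 ± 4.99 CPM in mdx FiMuSCs and 39.1 ± 1.28 CPM in WT FiMuSCs, and 130.2 ± 28.4 CPM in mdx myotubes and 182 ± 15.7 CPM in WT myotubes, against 54.6 ± 8.99 CPM in mdx myoblasts and 51.7 ± 3.42 CPM in WT myoblasts (SD, n = 3 each). Like Etfa it rose, by 1.02 ± 0.21 in mdx and 0.78 ± 0.09 in WT after injury and by 1.28 ± 0.19 in mdx and 1.83 ± 0.08 in WT with differentiation. Etfdh averaged between 49.4 ± 1.75 CPM in mdx FiMuSCs and 119 ± 6.52 CPM in WT myotubes. It rose with differentiation in both (1.08 ± 0.13 in mdx and 1.28 ± 0.07 in WT), and after injury in mdx (0.62 ± 0.17, adjusted p = 0.0321), a call lost without any 1 mdx FiMuSC library or mdx AMuSC replicate 3 (adjusted p up to 0.0843). In WT the injury value of Etfdh was 0.16 ± 0.09 (adjusted p = 0.157).

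**Figure D5:**
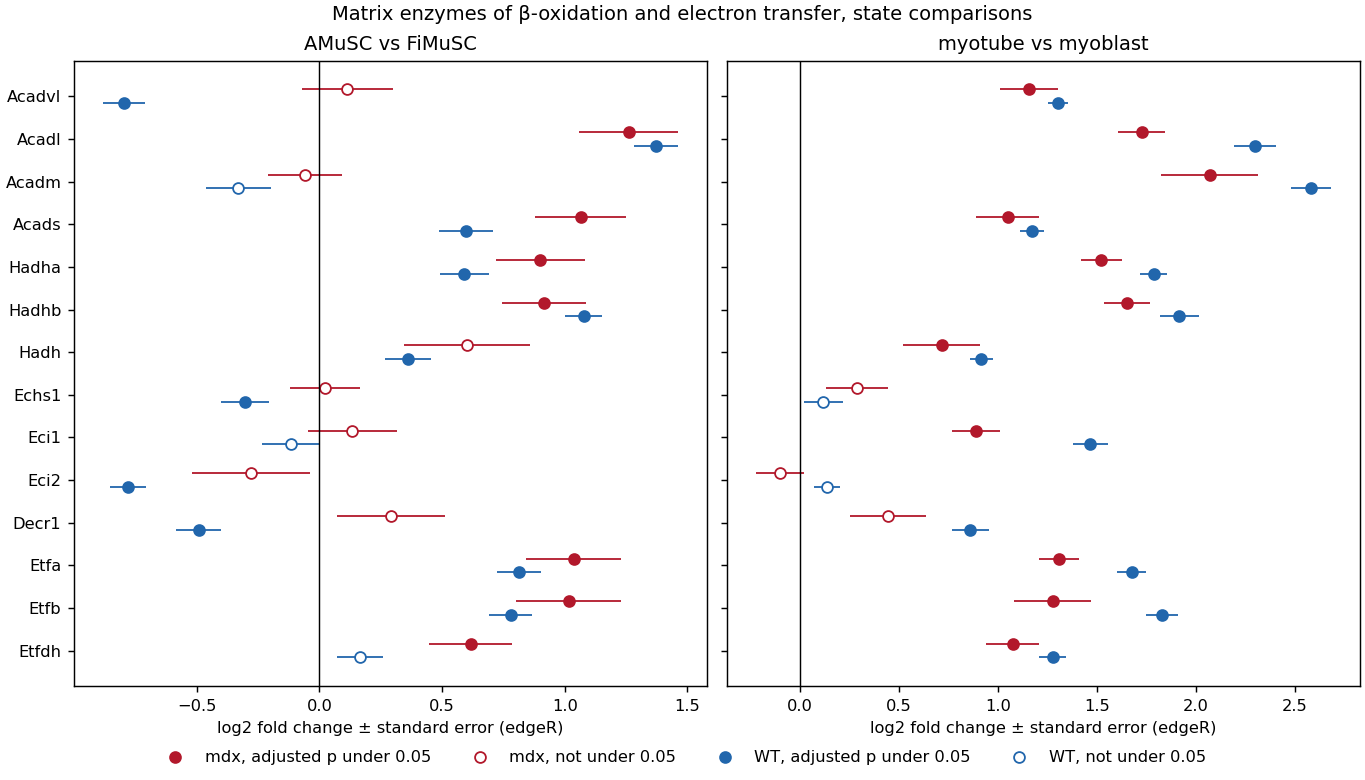
Log2 fold change with its standard error of the 14 matrix and electron transfer enzymes, AMuSC over FiMuSC and myotube over myoblast, for mdx and WT, with filled points where the adjusted p was under 0.05. With differentiation 11 points are filled in mdx and 12 in WT, all above 0, and after injury 7 in mdx, all above 0, and 11 in WT, of which Acadvl, Echs1, Eci2 and Decr1 lie below 0.

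Among the regulators, the nuclear receptors Ppara and Ppard switch on fatty acid oxidation genes when they bind fatty acids, and Ppargc1a is the coactivator that drives mitochondrial biogenesis. Ppard (chr17:28232700-28301474), whose E-boxes are shown above, was at 41.1, 48 and 50.3 CPM in mdx FiMuSCs, against 47.9, 70.3 and 71.4 CPM in WT FiMuSCs, and at 31.2, 27.9 and 25 CPM in mdx AMuSCs, against 18.7, 17 and 20.9 CPM in WT AMuSCs. In culture Ppard was at 29.1, 27.2 and 36.9 CPM in mdx myoblasts, against 30.7, 32.6 and 30.3 CPM in WT myoblasts, and at 27, 33.7 and 38 CPM in mdx myotubes, against 38.4, 37.5 and 35.7 CPM in WT myotubes. It fell after injury in mdx by 0.74 ± 0.14 (adjusted p = 0.0098) and in WT by 1.66 ± 0.17 (adjusted p = 6.26e-05), and the fall was smaller in mdx (0.89 ± 0.23, adjusted p = 0.0251). The fall in mdx was lost without mdx FiMuSC replicate 2 (adjusted p = 0.0536) or 3 (adjusted p = 0.0584), and the difference without any of 6 single libraries (adjusted p 0.054 to 0.0738), among them WT FiMuSC replicate 3 and mdx AMuSC replicate 1. Its higher level in mdx AMuSCs (0.54 ± 0.14, adjusted p = 0.0292) was lost without any 1 WT AMuSC library or mdx AMuSC replicate 1 (adjusted p 0.0612 to 0.132).

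Ppargc1a was at 5.35, 3.28 and 2.54 CPM in mdx FiMuSCs, against 6.42, 5.68 and 5.28 CPM in WT FiMuSCs, and at 2.91, 2.73 and 2.98 CPM in mdx AMuSCs, against 3.39, 4.88 and 2.89 CPM in WT AMuSCs. Cultures had Ppargc1a at 8.01, 8.87 and 9.68 CPM in mdx myoblasts, against 6.06, 5.47 and 5.74 CPM in WT myoblasts, and at 17.5, 29.4 and 41.9 CPM in mdx myotubes, against 28.3, 24.8 and 30.7 CPM in WT myotubes. It rose with differentiation by 1.76 ± 0.30 in mdx (adjusted p = 0.00327) and 2.29 ± 0.11 in WT (adjusted p = 1.19e-06), and myotubes stood above every other library. Ppara was scarce, with group means between 0.396 ± 0.127 CPM in WT myoblasts and 2.61 ± 0.751 CPM in WT FiMuSCs (SD, n = 3 each). It fell after injury in WT (−1.74 ± 0.32, adjusted p = 0.0014) and rose with differentiation in mdx (1.90 ± 0.58, adjusted p = 0.0318) and WT (1.86 ± 0.53, adjusted p = 0.0141). None of these 3 Ppara calls held once the change in its mean transcript length was allowed for (adjusted p 0.806, 0.646 and 0.452), and without WT myotube replicate 3 the rise in WT had an adjusted p of 0.0622. The rise in mdx was lost without mdx myoblast replicate 1 or 3 or mdx myotube replicate 2 or 3 (adjusted p 0.072 to 0.11).

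The uncoupling genes Ucp2 (chr7:100493337-100502020) and Ucp3 (chr7:100472990-100486432) are neighbours and encode carriers of the inner mitochondrial membrane. Ucp2 is widely expressed and known from macrophages and other immune cells, and Ucp3 is the muscle form. Ucp2 was at 56.7, 71.6 and 117 CPM in mdx FiMuSCs, against 28.8, 56.3 and 37.9 CPM in WT FiMuSCs, and at 235, 175 and 106 CPM in mdx AMuSCs, against 19.7, 23.5 and 17.5 CPM in WT AMuSCs. In culture Ucp2 was at 81.7, 27.6 and 9.1 CPM in mdx myoblasts, against 4.43, 11.5 and 3.86 CPM in WT myoblasts, and at 219, 115 and 208 CPM in mdx myotubes, against 134, 126 and 129 CPM in WT myotubes. Of the 3 calls between the genotypes that held in every alternative, Fabp5 in FiMuSCs and Cpt1a and Ucp2 in AMuSCs, that of Ucp2 was the largest (3.06 ± 0.30, adjusted p = 0.00167, highest 0.016), where the lowest mdx library had 106 CPM and the highest WT library 23.5 CPM.

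Without mdx AMuSC replicate 1, the library with 4198 CPM of macrophage markers, the Ucp2 difference in AMuSCs was 2.75, adjusted p = 0.0014. The 2 remaining mdx AMuSC libraries had 146 and 282 CPM of those markers, against 10.1 to 28.9 CPM in WT, so that the marker sum still differed between the genotypes, and its part in the Ucp2 level was not tested. After injury its log2 fold change in mdx was 1.06 ± 0.35 (adjusted p = 0.0635), while in WT Ucp2 fell by 0.93 ± 0.25 (adjusted p = 0.0143), a call lost without WT AMuSC replicate 1 (adjusted p = 0.0519) or 3 (adjusted p = 0.0575). The difference between the responses was 1.97 ± 0.48 (adjusted p = 0.0209) and did not pass without WT FiMuSC replicate 2, WT AMuSC replicate 1 or 3 or mdx FiMuSC replicate 2 (adjusted p 0.0509 to 0.0617).

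With differentiation the log2 fold change of Ucp2 was 2.22 ± 0.77 in mdx (adjusted p = 0.0503), and it rose by 4.30 ± 0.50 in WT (adjusted p = 0.000893). Without mdx myoblast replicate 1, which had 81.7 CPM, the mdx value was 3.33 (adjusted p = 0.00781). Macrophage markers in that library summed to 4.66 CPM, within the 4.55 to 7.71 CPM of the 5 myoblast libraries other than mdx replicate 2. Ucp3 was at 0.353, 0.326 and 0.236 CPM in mdx FiMuSCs, against 0.187, 0.02 and 0.111 CPM in WT FiMuSCs, and at 0.0366, 0.213 and 0.333 CPM in mdx AMuSCs, against 0, 0.246 and 0.0328 CPM in WT AMuSCs. In culture Ucp3 was at 0.0516, 0.0541 and 0.0758 CPM in mdx myoblasts, against 0.126, 0.125 and 0.034 CPM in WT myoblasts, and at 0.792, 2.65 and 3.7 CPM in mdx myotubes, against 3.74, 2.37 and 4.85 CPM in WT myotubes. It was low outside myotubes, where it stood above every other library, and the rise with differentiation was 5.27 ± 0.73 in mdx (adjusted p = 0.00127) and 5.24 ± 0.53 in WT (adjusted p = 5.39e-05).

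Other genes of fatty acid metabolism were followed in 5 lists with 72 genes, of which up to 3 per list and comparison are named by the smallest p. In AMuSCs, mitochondrial partners of the pathway were higher in mdx than in WT for 11 of 21 and lower for 1, beside the 14.8% and 8.95% of all genes. They included Acacb, which makes malonyl-CoA at the mitochondrion (1.50 ± 0.18, adjusted p = 0.00221), Cpt1c, the brain form of the transferase (1.49 ± 0.19, adjusted p = 0.00267), and the pyruvate dehydrogenase kinase Pdk2 (1.69 ± 0.25, adjusted p = 0.0045). Genes of peroxisomal oxidation were higher for 10 of 14 and lower for 0 (edgeR; likewise 0 lower by DESeq2 and at an unadjusted p under 0.05), among them Ech1, a dienoyl-CoA isomerase (1.24 ± 0.16, adjusted p = 0.00283), the peroxisomal transporter Abcd2 (2.10 ± 0.29, adjusted p = 0.00367) and the oxidase Acox3 (1.77 ± 0.25, adjusted p = 0.00395). As each library was left out, these counts of higher genes lay between 5 and 11 for the partners and between 6 and 10 for the peroxisomal list. Of the storage and lipolysis list 4 of 15 tested were higher, with the lipase Lipe (1.42 ± 0.18, adjusted p = 0.00302) first by p, a count that lay between 2 and 5 as each library was left out. Of fatty acid synthesis 4 of 13 were lower, with the synthase Fasn (−0.72 ± 0.14, adjusted p = 0.0125), and this count lay between 0 and 5 as each library was left out. The same libraries had the unequal macrophage RNA given above, and all 5 proliferation markers were lower in mdx AMuSCs, with sums of 903, 1178 and 1224 CPM, against 1676, 1597 and 1642 CPM in WT. Their part in these counts was not tested.

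In the other states the genotypes differed in few of these genes. In FiMuSCs 4 of the 70 genes tested in the 5 lists were higher and 5 lower in mdx, beside 5.82% and 3.85% of all genes, among them Esrrg, an ERR receptor of oxidative muscle (−2.07 ± 0.23, adjusted p = 0.00507), and Plin2, a coat protein of lipid droplets (0.92 ± 0.21, adjusted p = 0.0434). In myoblasts and myotubes 0 genes of the 5 lists passed (edgeR; DESeq2 called 8 and 3, and the unadjusted p was under 0.05 for 15 and 9).

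With differentiation, mitochondrial partners rose for 15 and fell for 4 of 20 tested in mdx, and rose for 16 and fell for 4 in WT, peroxisomal genes rose for 8 and fell for 1 of 14 in mdx and for 11 and 1 in WT, and fatty acid synthesis was divided, with 6 higher and 5 lower of 13 in mdx and 5 and 6 in WT. Of all genes, 25.8% were higher and 26.5% lower in mdx, and 34.9% and 34.5% in WT. Acacb rose by 4.41 ± 0.17 in WT (adjusted p = 4.06e-07). After injury, fatty acid synthesis rose for 3 and fell for 2 of 13 in mdx, and rose for 10 and fell for 2 in WT, led in both by the malic enzyme Me1 (1.92 ± 0.32 in mdx, adjusted p = 0.00541, and 3.14 ± 0.23 in WT, adjusted p = 1.12e-05). Storage and lipolysis genes fell for 5 and rose for 3 of 16 in mdx and fell for 7 and rose for 3 of 15 in WT, with Lipe lower in both (−1.37 ± 0.15 in mdx and −2.94 ± 0.12 in WT). These counts stand beside 15.5% higher and 11.7% lower of all genes in mdx and 31.6% and 33% in WT. The difference between the injury responses was positive for 8 of 21 partners and negative for 0 (edgeR; DESeq2 called 1, and 1 had an unadjusted p under 0.05), and positive for 4 of 14 peroxisomal genes, where 8.14% of all genes had a positive difference. As each library was left out, the positive counts lay between 5 and 11 for the partners and between 3 and 7 for the peroxisomal list. For Lipe the difference was 1.54 ± 0.17 (adjusted p = 0.000586).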

How the data were processed

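PolyA RNA of sorted or cultured myogenic cells was sequenced with a strand-marking kit from a small input of RNA. The authors deposited, for each of 24 libraries, a table of 136202 transcripts with expected counts and TPM made by Salmon. Version 0.13.1 of Salmon, DESeq2 and the build GRCm38 are listed in the submitters' notes on processing. The strand setting and other options are not given in the sources used here. One extraction kit served the sorted cells and another the cultures, so that kit and origin cannot be told apart, and sorted cells were not tested against cultures.

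For each of 53392 genes the deposited expected counts of its transcripts were added up and rounded to whole numbers. For each comparison of 6 libraries, or 12 for a difference between responses, genes with enough reads were kept (filterByExpr, minimum count of 10) and tested two-sided with edgeR 4.0.16 in R 4.3.3 (TMM, robust quasi-likelihood fit). P-values were adjusted over all genes tested by the Benjamini-Hochberg method, with a threshold of 0.05. Fold changes are log2 values from the fit, with their standard errors. Library totals were 37280196 to 64429222 reads. The deposited TPM values were summed per gene for shares and levels between genes.

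Alternatives were DESeq2 1.42.0, median-of-ratios size factors in edgeR, no filter, an offset for transcript length, a fit of all 24 libraries, the replicate number as a block, and each library left out in turn. Adding pseudogene reads, and leaving out mdx FiMuSC replicate 1 with mdx AMuSC replicate 1, were chosen after seeing the data. The edgeR fit was tested on simulated data with known changes and the same spread for every gene. This was done for mdx against WT FiMuSCs and for the difference of injury responses, and DESeq2 was not tested so.

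The members, marker lists and pathway lists were chosen with earlier results of these data known. By the rule for named genes, values of every library were given for members called between genotypes or in a difference of responses, and for the member of each role with the smallest p in each comparison between states. Cpt1b and, for their family or partner, a few other members were given by library after their values were seen. Of the 5 other pathway lists up to 3 genes per comparison were named by the smallest p, and some results are not reported here. No library was left out, and the p-values measure the spread between 3 libraries per group.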

Additional observations from a re-analysis of the deposited data

Results flagged for a closer look

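Injury responses (AMuSC over FiMuSC) differed between the genotypes for 6 members by the interaction test of edgeR over the 12 sorted libraries. The log2 difference, mdx response minus WT response, was 3.46 for Cd36 (adjusted p = 0.0431), 1.97 for Ucp2 (adjusted p = 0.0209), 0.89 for Ppard (adjusted p = 0.0251) and 0.88 for Acadvl (adjusted p = 0.0164), which in WT all fell after injury. It was −2.10 for Fabp5 (adjusted p = 0.0153) and −0.99 for Acsl4 (adjusted p = 0.0449), which rose in both genotypes. In mdx AMuSCs, the macrophage marker sum of replicate 1 was 4198 CPM, against 146 and 282 CPM in replicates 2 and 3, and its part in these differences was not tested. Without that library the Cd36 difference was 2.19, adjusted p = 0.0777, and its call was lost in 9 of 12 omissions of a single library.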

How the results depend on the processing

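Of the 32 members DESeq2 called 6 in FiMuSCs (2 by edgeR), 4 in myoblasts (0), 2 in myotubes (0) and 1 in the difference of differentiation responses (0). Over all genes DESeq2 likewise called 3341 against 1876 in FiMuSCs, 958 against 62 in myoblasts, 713 against 95 in myotubes and 341 against 11 in the difference of differentiation responses. The fit of all 24 libraries called 13 members in AMuSCs (8 in the fit of 6 libraries) and 1 in myoblasts. The cause was not tested. Counts of members in the other comparisons stayed within 1.5 times under every setting but single omissions.

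With the replicate number as a block, 4 members were called in FiMuSCs and 5 in AMuSCs. Whether same-numbered libraries share more than a number was not given in the sources used here. The correlations of their deviations from the group means lay between −0.119 and 0.285 and were over 0.1 for 2 of 24 pairs. With 3 libraries per group these values cannot decide whether such libraries are linked.

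As each library was left out in turn, the members called lay between 1 and 3 in FiMuSCs, 2 and 10 in AMuSCs, 0 and 0 in myoblasts and 0 and 2 in myotubes between genotypes. They lay between 9 and 17 after injury in mdx and 20 and 24 in WT, between 21 and 25 with differentiation in mdx and 29 and 31 in WT, between 2 and 9 for the difference of injury responses, and at 0 throughout for that of differentiation responses.

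A call with the opposite sign of the value with all libraries appeared in 4 cases. Fabp5 was −0.45 between genotypes in AMuSCs without mdx AMuSC replicate 1, and up to 0.29 as each other library was left out. Lpl was −1.05 after injury in mdx without that library and −0.95 without it and mdx FiMuSC replicate 1, a setting chosen after seeing the data, and up to 0.46 under other single omissions. Fabp3 was −1.71 after injury in WT without WT AMuSC replicate 2, and up to 1.32 under other single omissions. Without both mdx libraries 16 members were called after injury in mdx (14 with them) and 7 in the difference of injury responses (6). Adding the reads of pseudogenes, also chosen after seeing the data, changed no count. Calls that held in every setting were 1 of 2 in FiMuSCs, 2 of 8 in AMuSCs, 8 of 14 after injury in mdx and 18 of 22 in WT, 20 of 24 with differentiation in mdx and 26 of 29 in WT, and 1 of 6 for the difference of injury responses.

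Depth limits Fabp3, Fabp4, Ppara and Ucp3, which had few reads in several groups. Without a stated strand setting, reads of Fabp3, Acsl5, Acadvl, Echs1 and Etfdh cannot be told apart from those of overlapping genes on the opposite strand (Zcchc17, Zdhhc6, Dvl2, Paox and 4930579G24Rik), and Cpt1b shares exons with Gm44502 on its own strand.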

Other observations

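The other marker lists bear on the make-up of the libraries. The 8 muscle stem cell markers summed to 4866 to 5277 CPM in mdx FiMuSCs, against 4498 to 4693 CPM in WT FiMuSCs, and to 3874 to 5246 CPM in mdx AMuSCs, against 3234 to 3316 CPM in WT AMuSCs. They did not run one way. In every mdx FiMuSC library Itga7, Cdh15, Vcam1 and Des were higher than in every WT one, and Calcr and Myf5 were lower. In AMuSCs Pax7, Myf5, Cdh15, Vcam1 and Calcr were higher in every mdx library, and Myod1 was lower (128 to 274 CPM, against 371 to 495 CPM in WT). The 8 mature myofibre markers summed to 272 to 305 CPM in mdx FiMuSCs, against 331 to 785 CPM in WT FiMuSCs, where Actn3 was lower in mdx by the test and Ckm and Pvalb were higher, and to 10099 to 17422 CPM in mdx myotubes, against 16263 to 21565 CPM in WT myotubes. The 6 adipocyte markers stood at or below 26.2 CPM in every library except 1 mdx myotube library with 117 CPM. Nearly all of that library's sum was Car3 (116.9 CPM), and the other 5 markers stayed under 1 CPM in every library.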
